A study of Cricetulus griseus with 3 samples.

Results

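CHO cells, which derive from the ovary of a Chinese hamster (Cricetulus griseus), yielded 54 transcripts whose midbody level was below that of both other microtubule preparations by 2-fold or more. They were chosen on the deposited values themselves: the mitotic to midbody and the interphase to midbody ratio of RPKM + 1 each had to reach 2. RPKM is reads scaled by transcript length and by the library's assigned reads. The rule selected 54 of 21607 transcripts in the table, which is 0.405% of the 13325 that reached 1 RPKM in at least 1 library. Human protein matches deposited with the table covered 48 of the 54, each a different protein, and these names are used below in capitals for the hamster transcripts. A name therefore means the best-matching human protein and not a proven hamster counterpart.

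Midbodies are the dense microtubule bridges that join daughter cells at the end of cytokinesis, and they are cut away at abscission. They are built on the central spindle and are known to carry RNA as well as protein. Poly-A RNA was sequenced from 3 preparations of CHO cells, with 1 library each. All cells were held for 16 h in 2 mM thymidine, which stalls DNA synthesis, and interphase microtubules were taken from such cells with no further treatment in the labels. For mitotic microtubules the cells had 5 h without thymidine and then 4 to 5 h in 0.1 ug/ml nocodazole, which depolymerizes microtubules. Mitotic cells shaken off the dish then had 15 min in fresh medium, and the midbody preparation had the same steps with 65 min.

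The libraries held 5134865 assigned reads for midbodies, 8059745 for mitotic and 12672056 for interphase microtubules. With 1 library per group no difference has a replicate check, and the intervals given are exact binomial ones at 95% on the reads and cover counting error only. All 3 libraries are of microtubule-bound RNA, with no whole-cell RNA beside them, so a low midbody value is low relative to the other preparations only. In such bulk material, fewer structures carrying an RNA and less RNA on each cannot be told apart. Between midbodies and mitotic microtubules, neither can the structure and the longer time in fresh medium. The labels give interphase cells no release, nocodazole or fresh medium. Comparisons with interphase, of midbodies or of mitotic microtubules, therefore cannot tell structure apart from these steps or from cell cycle stage. KIF23, the kinesin of the centralspindlin complex, stood at 274 RPKM in midbodies, 109 in the mitotic and 79.0 in the interphase library. Of 12 listed midbody and central spindle proteins, it alone was 2-fold or more higher in midbodies, against either library. The 12 had median log2 ratios of RPKM + 1 of 0.15 over mitotic and -0.20 over interphase. Of 9 markers checked for cell type, only vimentin (VIM), of mesenchymal cells, was above 1 RPKM. It was at 239 in midbodies, 168 in the mitotic and 205 in the interphase library. The other mesenchymal markers, CDH2 and COL1A1, were at 0.13 RPKM or less. Keratin 18 (KRT18) and the blood marker CD45 (PTPRC) had 0 reads in every library.

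Passing the mitotic comparison was the rarer event. Of 13131 transcripts at 1 RPKM or more in either library, 237 (1.80%) had a midbody level 2-fold or more below the mitotic one. Against interphase the same held for 2712 of 13059 (20.8%). The 54 transcripts make up 22.8% of the former list and 1.99% of the latter. Their log2 ratios of midbody over mitotic RPKM + 1 went down to -2.21 from just past the line, with a median of -1.17. The ratios over interphase ran from -5.08 to -1.02 with a median of -1.59. Across all 13325 transcripts the medians were -0.03 and -0.13. The rule fixed the sign and the least size of both ratios for the 54, so these values describe the choice and test nothing.

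**Figure D1:**
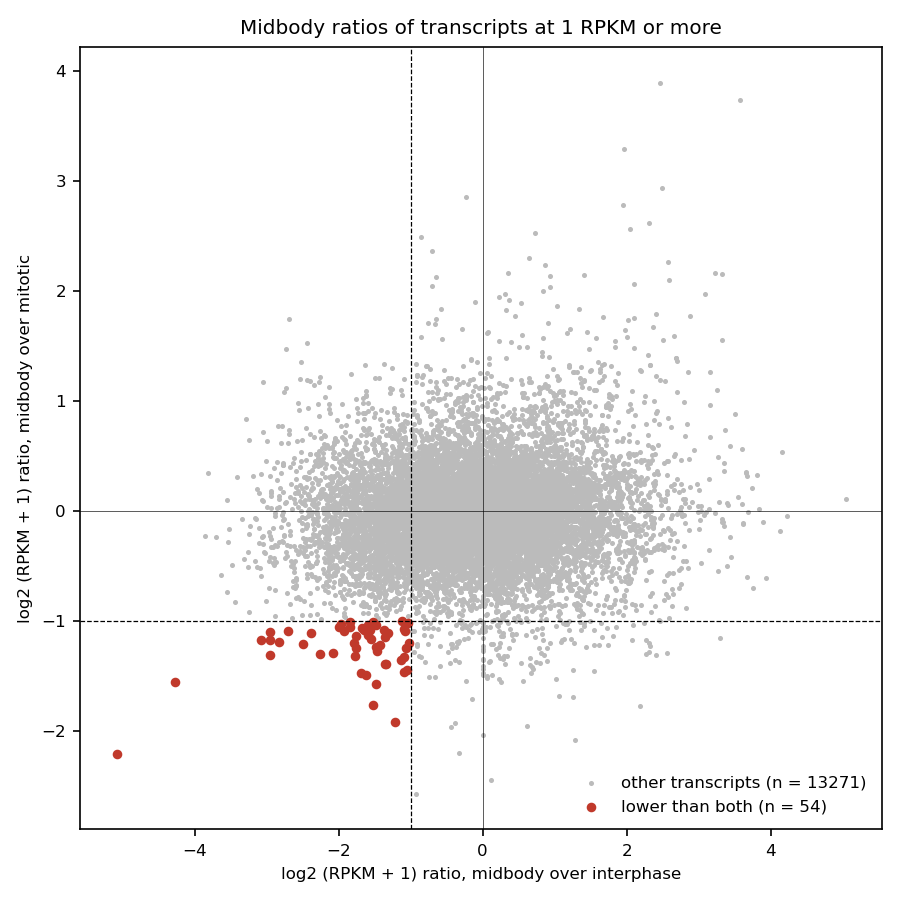
Each point is 1 transcript, placed by its log2 ratio of RPKM + 1 in midbodies over interphase (horizontal) and over mitotic microtubules (vertical), with dashed lines at 2-fold lower. The 54 chosen transcripts (red) lie close under the mitotic line, with a median of -1.17, and spread further left, to -5.08, against interphase.

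Many sat near the line. For 29 of the 54 the smaller of the 2 ratios was under 2.2-fold, and TSEN15 alone exceeded 3-fold in both on the RPKM + 1 scale. TSEN15 also had the lowest log2 ratios, -2.21 and -5.08. It rested on 0 midbody and 5 mitotic reads, and its mitotic interval, which began at 0.58, did not exclude equality. Nearest inside were HSPB6 (O14558) with a smaller ratio of 2.003, IQCK (Q8N0W5) with 2.02 and FUBP3 (Q96I24) with 2.02. Nearest outside were the transcripts matched to Q6NSJ5 with 1.98, Q8TF74 with 1.97 and P24390 with 1.97.

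Reads set the width of each interval. Of the 54, 8 had no midbody read, 10 had between 1 and 3, and 36 had more. The counting interval excluded equality in both comparisons for 40. Because the rule chose on these reads, that exclusion follows in good part from the choice. Over the 30 transcripts with at least 50 reads in both the mitotic and the interphase library, whose midbody reads ran from 11 to 352, mitotic CPM (reads scaled by the library total alone) was 2.10 to 3.59 times the midbody value, with a median of 2.58, and interphase CPM was 2.20 to 9.70 times it, with a median of 3.26. For 7 of the 54 the interval reached 1 in both comparisons.

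**Figure D2:**
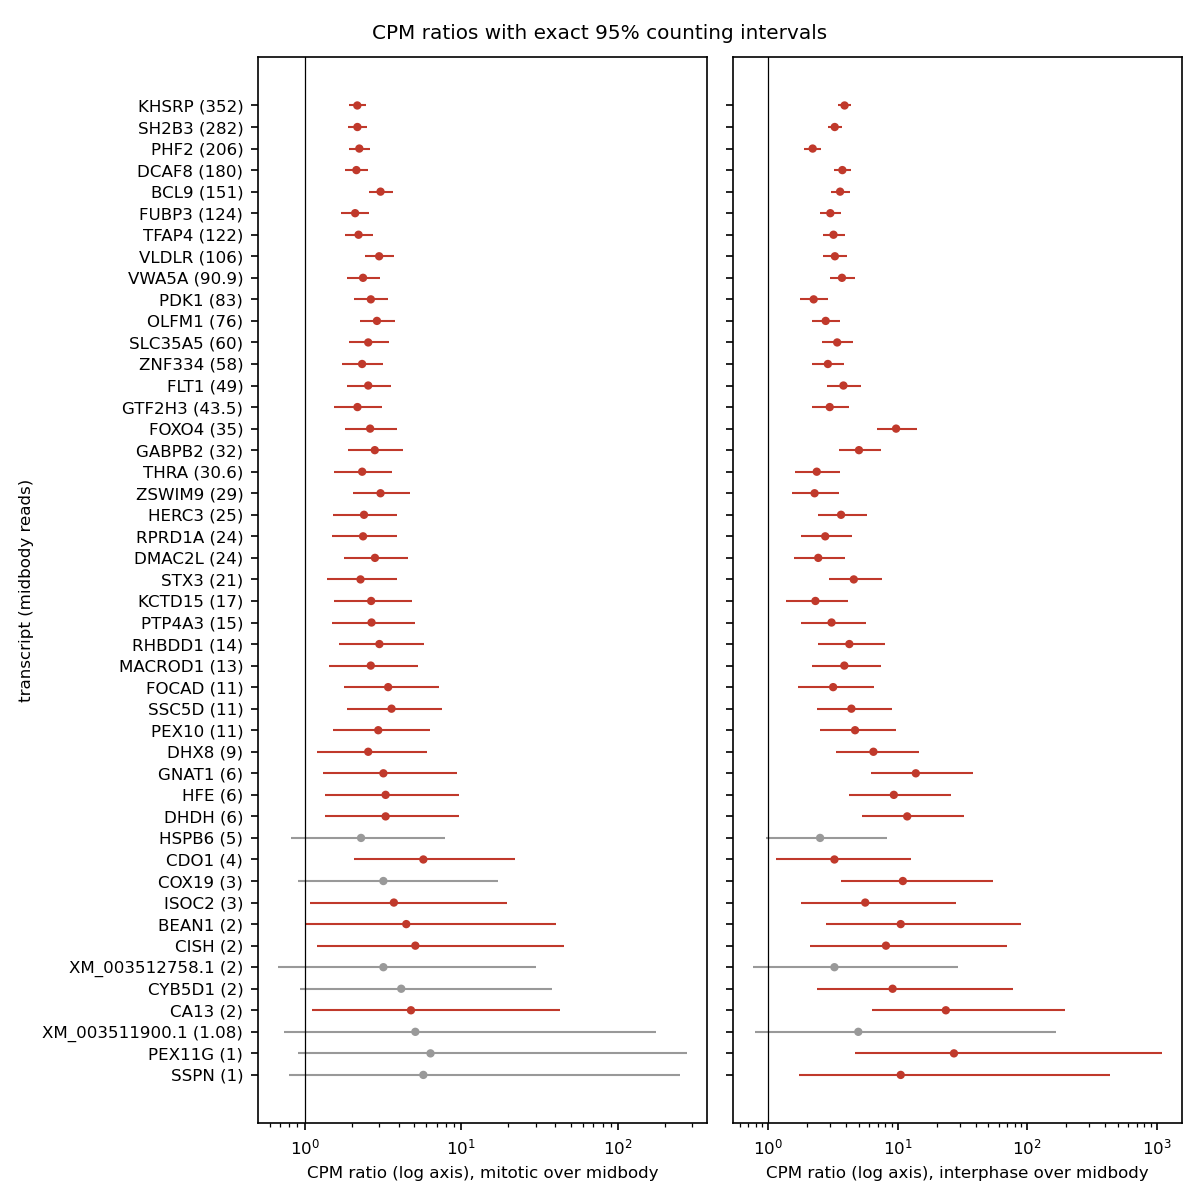
CPM ratios of mitotic over midbody (left) and interphase over midbody (right) on log axes for the 46 transcripts with midbody reads, ordered by those reads, given in parentheses. Bars are exact 95% counting intervals, red where they exclude 1 and grey where they do not. The bars widen downward, from 1.93 to 2.45 for KHSRP to 0.91 to 276 for PEX11G in the mitotic comparison.

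By protein class the set was mixed. Classes were assigned by hand from the human names: 10 transcripts encode proteins of transcription and chromatin, 7 membrane proteins, 6 signalling proteins, 5 metabolic enzymes, 4 RNA- or DNA-binding proteins, 3 mitochondrial factors, and 2 each peroxisomal, ubiquitin-pathway and extracellular proteins. Another 2, HSPB6 and FOCAD, stand alone, 5 have no class here and 6 had no human match. All 10 of the transcription class had at least 50 reads in both comparison libraries, as did 30 of the 54.

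KHSRP (Q92945) was the most abundant member in each library. It encodes a KH-domain protein that binds AU-rich elements and promotes decay of the mRNAs that carry them. Its RPKM was 35.7 for midbodies, 77.5 for mitotic and 139 for interphase microtubules. The midbody level was the lowest of 3 clearly separate values, with mitotic CPM 2.17 times (interval 1.93 to 2.45) and interphase CPM 3.88 times (3.48 to 4.34) the midbody CPM. FUBP3, a KH-domain relative that binds single-stranded far upstream elements, kept the same order at 12.0, 25.2 and 36.1 RPKM. The factors were 2.10 (1.71 to 2.59) and 3.01 (2.50 to 3.67), and part of its reads was shared with a 2nd FUBP3 transcript. FUBP1, the remaining member of this family, was nearly level at 74.8, 72.1 and 85.9 RPKM. DHX8 (Q14562), a helicase that releases spliced mRNA from the spliceosome, stood at 5.49, 14.0 and 35.6 RPKM on 9 midbody reads. Its model is only 319 bases long, and its match had an E-value of 9e-32.

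Transcription factors and cofactors showed a middle range of levels. FOXO4 (P98177), a forkhead factor held in the cytoplasm by Akt signalling, stood at 3.44 RPKM in midbodies, 9.01 in the mitotic and 33.3 in the interphase library. Interphase was far above the other libraries here: the factor over midbodies was 9.70 (6.92 to 14.0), the highest of the 30 well-counted members, against 2.62 (1.80 to 3.91) for mitotic. BCL9 (O00512), a beta-catenin coactivator of Wnt signalling, was at 6.33, 19.3 and 22.7 RPKM. Both comparison libraries lay close together and above midbodies, by factors of 3.05 (2.56 to 3.66) and 3.59 (3.03 to 4.27). GABPB2 (Q8TAK5), a beta subunit of the GA-binding protein, rested on 32 midbody reads and was at 4.10, 11.5 and 20.5 RPKM.

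PHF2 (O75151), a histone lysine demethylase, had 11.0 RPKM in midbodies against 24.6 mitotic and 24.2 interphase. The comparison libraries were level, and their factors over midbodies were 2.24 (1.91 to 2.62) and 2.20 (1.90 to 2.57). Its match to the human protein was weak, with an E-value of 5e-25 over a model of 3645 bases. TFAP4 (Q01664), a helix-loop-helix factor, was at 12.2, 27.0 and 39.0 RPKM with partly shared reads. ZNF334 (Q9HCZ1), a C2H2 zinc finger protein, was at 5.46, 12.7 and 15.7 RPKM. RPRD1A (Q96P16), which binds the tail of RNA polymerase II, was at 5.58, 13.2 and 15.4 RPKM, and KCTD15 (Q96SI1), a BTB-domain protein, at 3.58, 9.53 and 8.28. In these 4 the midbody value was the lowest and the other libraries differed from each other by less than from midbodies. GTF2H3 (Q13889), a TFIIH subunit, and THRA (P10827), the thyroid hormone receptor alpha, are taken up below with their other transcripts.

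**Figure D3:**
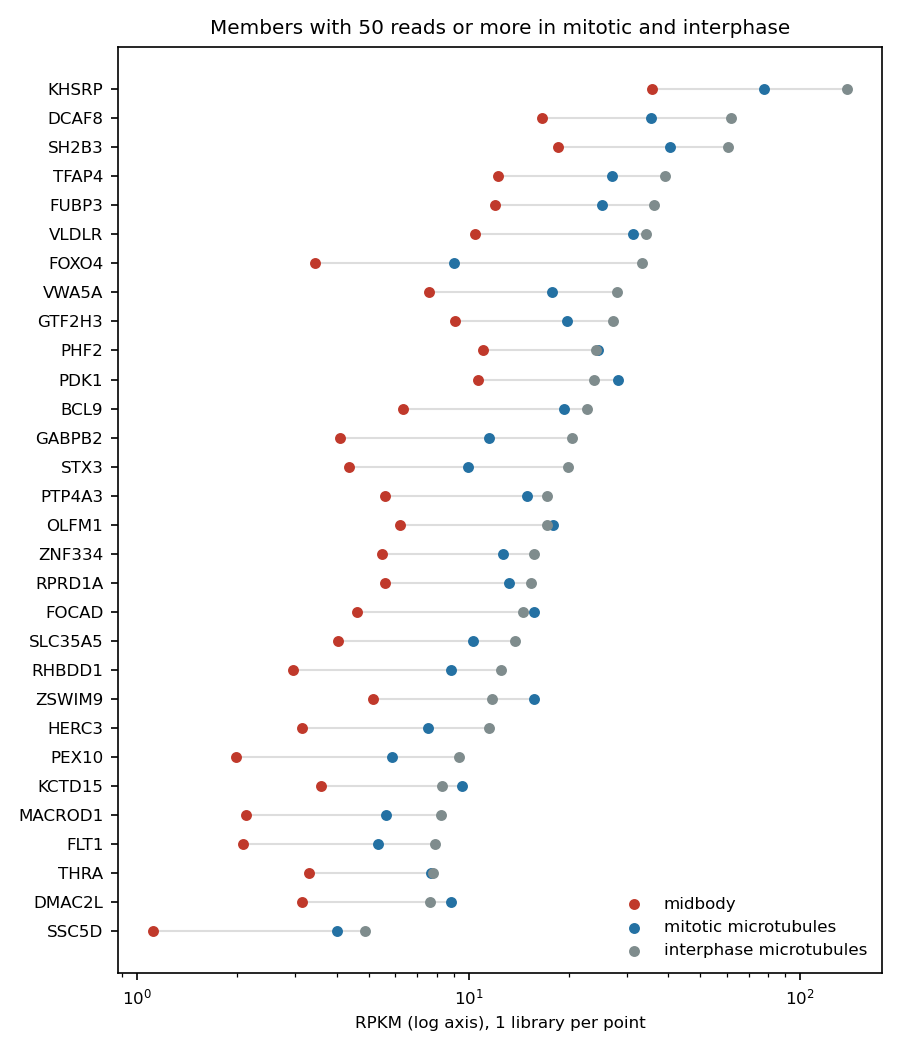
RPKM on a log axis for the 30 members with at least 50 reads in both the mitotic and the interphase library, 1 point per library. The midbody point is leftmost in every row, as the rule requires, and in 23 of the 30 rows the interphase point lies right of the mitotic one, as in KHSRP at 77.5 and 139.

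Receptors, adaptors and inhibitors of signalling formed the next group. FLT1 (P17948), a receptor for vascular endothelial growth factor, was at 2.08 RPKM in midbodies, 5.31 in the mitotic and 7.92 in the interphase library, on a model of 4581 bases. Its low RPKM still rested on 49, 196 and 460 reads, with factors over midbodies of 2.55 (1.86 to 3.56) and 3.80 (2.83 to 5.22). SH2B3 (Q9UQQ2), an adaptor that dampens cytokine receptor signalling, was among the most abundant at 18.6, 40.5 and 60.7 RPKM. Its factors were 2.17 (1.90 to 2.49) and 3.26 (2.88 to 3.70). PTP4A3 (O75365), a phosphatase anchored to membranes by a lipid, was at 5.60, 15.0 and 17.2 RPKM on 15 midbody reads.

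The remaining signalling members were thinly counted. CISH (Q9NSE2), a cytokine-induced inhibitor of JAK-STAT signalling, had 2, 16 and 40 reads in midbody, mitotic and interphase order. GNAT1 (P11488), the rod transducin alpha subunit, had 6, 30 and 204, so interphase was 13.8 times midbodies in CPM (6.22 to 38.0). CDC42SE2 (Q9NRR3), a small effector of Cdc42, had 0, 4 and 59 reads. Interphase CPM of CDC42SE2 was 7.97 times the limit set by the 3 midbody reads that a count of 0 allows. The counting interval of interphase over midbodies began at 6.28. In CPM the 4 mitotic reads were below the midbody limit.

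Membrane and trafficking proteins made up 7 of the 54, and each had more interphase than mitotic RPKM, as did 42 of the 54 in all. For VLDLR and SSPN the counting interval of that difference held equality. VLDLR (P98155), a lipoprotein receptor, was at 10.5, 31.3 and 34.2 RPKM, with factors over midbodies of 2.99 (2.42 to 3.73) and 3.27 (2.67 to 4.04), though its match was weak with an E-value of 4e-25. SLC35A5 (Q9BS91), of the nucleotide sugar transporter family, stood at 4.04, 10.3 and 13.7 RPKM. STX3 (Q13277), a SNARE of apical membrane fusion, was at 4.36, 9.92 and 19.9 RPKM, and RHBDD1 (Q8TEB9), a rhomboid protease, at 2.95, 8.86 and 12.5. HFE (Q30201), which regulates iron uptake, had 6, 31 and 138 reads. BEAN1 (Q3B7T3) had 2, 14 and 52, and SSPN (Q14714), sarcospan of the dystrophin complex, had 1, 9 and 26. SSPN's mitotic interval, 0.79 to 251, did not exclude equality.

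PDK1 (Q15118), the kinase that switches off pyruvate dehydrogenase, led the metabolic enzymes with 10.7 RPKM in midbodies, 28.3 in the mitotic and 23.9 in the interphase library. Mitotic was the highest library, and the factors over midbodies were 2.65 (2.08 to 3.41) and 2.24 (1.77 to 2.87). CDO1 (Q16878), cysteine dioxygenase, also peaked in the mitotic library, at 1.44, 8.27 and 4.68 RPKM on 4, 36 and 32 reads. The other enzymes were highest in interphase. MACROD1 (Q9BQ69), which removes ADP-ribose, had 13, 54 and 124 reads. DHDH (Q9UQ10), dihydrodiol dehydrogenase, had 6, 31 and 175. CA13 (Q8N1Q1), a carbonic anhydrase, had 2, 15 and 116, with an interphase factor of 23.5 and an interval of 6.36 to 196.

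Mitochondrial and peroxisomal transcripts were few and mostly low. DMAC2L (Q99766), an ATP synthase coupling factor, was at 3.13 RPKM in midbodies, 8.81 in the mitotic and 7.62 in the interphase library. COX19 (Q49B96), of cytochrome c oxidase assembly, had 3, 15 and 81 reads, and HIGD1B (Q9P298) had 0, 3 and 6. PEX10 (O60683), a ubiquitin ligase of peroxisomal import, was at 1.99, 5.88 and 9.31 RPKM on 11, 51 and 127 reads. PEX11G (Q96HA9), of the peroxisome division family, had 1, 10 and 67. COX19 and PEX11G were separable from midbodies by counting in the interphase comparison alone, and HIGD1B in neither.

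DCAF8 (Q5TAQ9), a substrate receptor of cullin ubiquitin ligases, was second to KHSRP in interphase RPKM with 16.6, 35.6 and 62.0 RPKM. Its factors over midbodies were 2.14 (1.81 to 2.54) and 3.73 (3.20 to 4.38). Of the secreted proteins, OLFM1 (Q99784), an olfactomedin-domain glycoprotein, stood at 6.19, 17.9 and 17.2 RPKM with partly shared reads. SSC5D (A1L4H1), a scavenger receptor cysteine-rich protein, was at 1.11, 3.99 and 4.88 RPKM. HSPB6, a small heat shock protein, had 5, 18 and 31 reads, and both intervals reached below 1.

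Of the 5 without a class, ZSWIM9 (Q86XI8), named for its SWIM zinc finger domain, was at 5.14, 15.7 and 11.7 RPKM and VWA5A (O00534), a von Willebrand factor A domain protein, at 7.56, 17.9 and 28.0. ISOC2 (Q96AB3) and CYB5D1 (Q6P9G0) had 3 and 2 midbody reads, and IQCK had 0, 3 and 12 reads. Among the 6 with no human match, the only one with a hamster gene symbol was NM_001244577.1, the metallothionein gene Mt2. It had 0, 2 and 4 reads, too few for any factor, whereas its paralog Mt1 had 45, 38 and 75. The other 5, XM_003511900.1, XM_003512758.1, XM_003508709.1, XM_003514593.1 and XM_003514354.1, reached at most 3.35 RPKM in any library. XM_003508709.1, with 0, 9 and 11 reads, was the 1 transcript of the 8 without midbody reads whose intervals excluded equality in both comparisons.

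The mitotic to interphase ratio was the contrast that the rule did not set directly, although both libraries entered the rule. Interphase was above mitotic RPKM in 42 of the 54 (77.8%), against 54.7% of the 13176 transcripts at 1 RPKM or more in either library. The median log2 ratio of mitotic over interphase RPKM + 1 was -0.47, beside -0.13 over all of those. The rule shapes both the share and the median. Few transcripts passed the mitotic line and most of those chosen lay close to it, while the interphase ratios could run far lower. Both values therefore describe the choice and test nothing. The mitotic level was 2-fold or more below interphase in 10 of the 54 (18.5%), near the background of 20.7%. None was 2-fold or more above it (background 16.6%), a count the rule nearly fixes, since such a member would have to be 4-fold below mitotic in midbodies and only 1 was. By counting interval 29 were below interphase in the mitotic library, against a background of 46.4%, 3 above it, against 36.9%, and 22 could not be ordered. The 3 with a higher mitotic level were PDK1, ZSWIM9 and CDO1, at 28.3 against 23.9, 15.7 against 11.7 and 8.27 against 4.68 RPKM. The widest interphase excess among members with at least 50 reads in both was that of FOXO4, 3.70 times mitotic in CPM (3.10 to 4.45).

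For 12 of the 48 matched members the table holds further transcripts with the same human match, 18 in all. When reads were summed over all transcripts of a match, 4 of the 12 kept a midbody CPM 2-fold or more below both libraries: DCAF8, VLDLR, OLFM1 and HFE. The 2nd DCAF8 and HFE transcripts had at most 1 read, so they add nothing. VLDLR came to 2.64 (2.28 to 3.07) and 2.22 (1.92 to 2.57) times the midbody CPM. The 2nd VLDLR transcript, with a stronger match (E-value 1e-75), was at 21.7, 50.4 and 27.4 RPKM. Its factors over midbodies were 2.32 (1.89 to 2.88) and 1.26 (1.02 to 1.57), so it passed the mitotic line only. OLFM1 was 2.87 (2.30 to 3.62) and 2.60 (2.10 to 3.26) times higher in mitotic and interphase microtubules after summing. Its 2nd transcript alone stood at 5.50, 15.3 and 10.8 RPKM.

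The other 8 passed the line as single transcripts only. GTF2H3 had a member transcript of 930 bases at 9.11, 19.8 and 27.2 RPKM beside a longer one of 2142 bases at 30.05, 44.7 and 36.4. Summed, its factors over midbodies were 1.57 (1.39 to 1.77) and 1.42 (1.26 to 1.59). THRA had 4 transcripts that share reads. The member stood at 3.29, 7.68 and 7.80 RPKM and the most abundant of the others at 9.21, 8.05 and 9.29, and the sum gave 1.19 (0.995 to 1.43) and 1.44 (1.23 to 1.71). VWA5A, with 5 transcripts, came to 1.36 (1.19 to 1.56) and 1.59 (1.40 to 1.80), and FUBP3 to 1.94 (1.66 to 2.27) and 3.23 (2.80 to 3.74).

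FOCAD (Q5VW36), focadhesin, is spread over 3 models. The member, of 465 bases, was at 4.61, 15.7 and 14.6 RPKM, and the longest model, of 2929 bases, at 20.7, 38.1 and 20.3. Together they gave factors of 1.77 (1.59 to 1.98) and 1.31 (1.17 to 1.46). HERC3 (Q15034), a HECT ubiquitin ligase, missed the line in the mitotic comparison only, at 1.38 (1.04 to 1.83) and 2.70 (2.11 to 3.48). TSEN15 (Q8WW01), a subunit of the tRNA splicing endonuclease, had 0, 5 and 71 reads on its member model of 171 bases. Interphase CPM of that model was 9.59 times the limit of 3 midbody reads, and the counting interval of interphase over midbodies began at 7.60. Mitotic CPM was only 1.06 times that limit. The mitotic interval began at 0.58, so the model was not separable from mitotic by counting. A model of 435 bases with the same match had 37, 39 and 267. Its summed mitotic factor was 0.76 (0.48 to 1.21), and that of ISOC2 was 0.89 (0.66 to 1.19). Whether the models of 1 match belong to 1 gene was not tested.

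Levels of the members' relatives are given beside them for description, in families written down after the members were known. Since 0.405% of the expressed transcripts meet the rule, nothing is read from a relative that does not. FOXO1 was at 20.3, 17.9 and 36.9 RPKM and FOXO3 at 10.7, 6.70 and 42.7, so both were below interphase in midbodies. Midbody over mitotic CPM was 1.13 (0.98 to 1.30) for FOXO1, not separable by counting, and 1.60 (1.22 to 2.10) for FOXO3. The kinases PDK2, PDK3 and PDK4 had midbody over mitotic log2 ratios of 0.29, 0.42 and 0.36, beside PDK1 at -1.33. For PDK2 and PDK4 the counting interval held equality, at 1.34 (0.67 to 2.67) and 1.35 (0.85 to 2.15) in CPM. Over interphase PDK2 and PDK4 were at -1.01 and -1.14, close to PDK1 at -1.09, and PDK3 was at 0.33. The ratios that follow are over mitotic. SOCS1, SOCS2 and SOCS3, which belong to the CISH family, were at 0.56, 0.38 and 0.55, beside CISH at -1.25. PTP4A1 and PTP4A2 were at 0.10 and -0.02, SH2B1 and SH2B2 at -0.27 and 0.14, GABPA and GABPB1 at -0.33 and -0.18, and BCL9L at -0.35. For SOCS2, PTP4A1, PTP4A2, SH2B2 and GABPB1 the counting interval over mitotic held equality.

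Of 16 peroxins, which import proteins into peroxisomes or build and divide them, 2 had a midbody level 2-fold or more below the mitotic one (background 1.80%), and both are members. Against interphase 5 did (background 20.8%): the same 2, PEX2 at -1.38, PEX19 at -2.30 and PEX26 at -2.13. The list was written after PEX10 and PEX11G were known as members, so their count is no excess over the background. PEX11G rested on 1 midbody read. The median log2 ratio of the 16 was -0.14 against mitotic and -0.36 against interphase. The most abundant, the import receptor PEX5, was higher in midbodies at 156, 87.7 and 82.1 RPKM. Among 9 measured TFIIH subunits, each taken as its most abundant transcript, 0 were 2-fold lower against either library. The tRNA splicing endonuclease subunits TSEN34 and TSEN54 stood at 110 and 106 RPKM in midbodies, with log2 ratios over mitotic of 0.09 and 0.23.

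**Figure D4:**
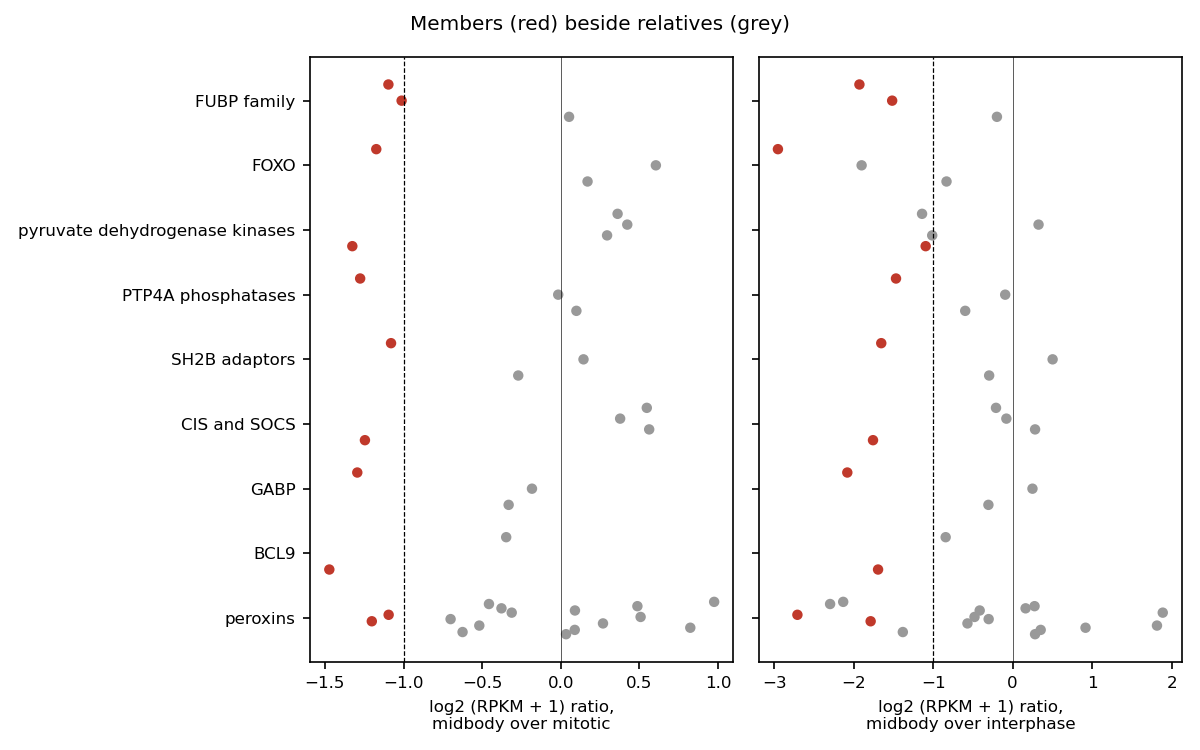
Log2 ratios of RPKM + 1 in midbodies over mitotic (left) and interphase microtubules (right) for the families of 11 members, 1 point per human protein, with members in red, relatives in grey and a dashed line at 2-fold lower. Against mitotic, grey points lie right of the line in every family, as FUBP1 does at 0.05, and against interphase some relatives such as FOXO3 at -1.90 lie left of it.

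None of 4 other lists held a member, where the background of 0.405% would give less than 1. The C2H2 list is a selection of 9 genes that leaves out the member ZNF334, so it does not show that C2H2 genes are absent. Of 12 midbody and central spindle proteins, 0 were at least 2-fold lower against mitotic microtubules (background 1.80%) and 1, the exchange factor ECT2 at -1.10, against interphase (20.8%), and their medians were 0.15 and -0.20. The 8 immediate early genes had medians of 1.19 and 1.41, and ATF3, at 134, 9.09 and 10.3 RPKM, had the highest of these ratios and EGR1, at -0.58 against mitotic, the lowest. The 6 genes of the BMP and TGF-beta response had medians of 0.90 and 0.39. Among 9 C2H2 zinc finger genes the medians were -0.34 and 0.36. ZNF202, a transcriptional repressor, missed the rule in 1 comparison: it stood at 1.72, 11.6 and 2.42 RPKM, lower than mitotic by 2.21 on the log2 scale but by only 0.33 relative to interphase.

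Transcript length and level differed from the table as a whole, on the RPKM scale that the rule used. The median length of the 54 was 927 bases (quartiles 464 and 1925), beside 1745 (1049 and 2742) for all transcripts at 1 RPKM or more. Under 1000 bases were 53.7% of the 54 and 23.1% of all, and 3000 bases or more were 5.56% and 20.9%. FLT1 and BCL9, at 4581 and 4645 bases, and PHF2 were the 3 long ones. The 30 well-counted members had a median of 1864 bases and the other 24 a median of 422, so the short lengths sat with the low reads, which at a given RPKM follow from length. Of 4 groups of like size by length, the shortest held 0.870% that met the rule and the longest 0.150%. The 99 transcripts that exceeded both libraries by 2-fold or more in midbodies were short too, with a median of 579 bases. Lengths divisible by 3, as in a model of coding sequence alone, made up 70.4% of the 54 and 55.6% of all. The short median depended on the unit: with CPM in place of RPKM in the rule, the median length was 1870 bases. The 18 members lost in CPM had a median of 358.5 bases, and the 12 transcripts gained had 2496. How far counting noise sets these lengths was not tested.

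**Figure D5:**
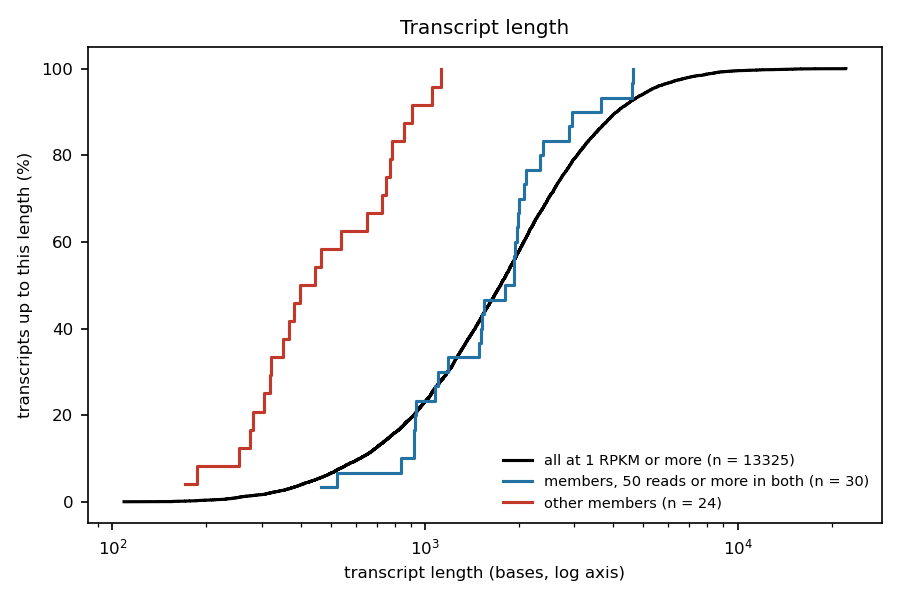
Cumulative share of transcripts by length on a log axis for all 13325 at 1 RPKM or more (black), the 30 members with at least 50 reads in both comparison libraries (blue) and the other 24 (red). The blue and black lines have medians of 1864 and 1745 bases and part in the upper range, with upper quartiles of 2100 and 2742, and the red line lies left of both, with a median of 422.

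Levels were low to moderate, and the rule itself selects for a low midbody level. Median RPKM of the 54 was 3.04 for midbodies, 7.80 for mitotic and 12.1 for interphase microtubules, beside 19.1, 19.9 and 24.1 over all transcripts at 1 RPKM or more. Of 4 such groups by highest RPKM, the lowest held 27 of the 54 and the top 2, KHSRP and DCAF8. At 10 RPKM or more were 8 members in midbodies, 20 in the mitotic and 30 in the interphase library. Fractional reads, a sign of reads shared between transcripts, were found in 8 of the 54 (14.8%), against 27.7% of all. They were TFAP4, FUBP3, OLFM1, THRA, VWA5A, GTF2H3, ISOC2 and XM_003511900.1, whose intervals do not cover how the reads were divided.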

How the data were processed

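RNA was isolated with a Qiagen kit, selected on dT locked nucleic acid and made into Illumina TruSeq version 2 libraries, per the labels' protocols. The 3 samples were grouped by title, and the Metaphase columns were assigned to the sample titled Mitosis. Estimated counts of reads per transcript were deposited without normalization, and the RPKM values are the authors' own, per the file headers. Which aligner, counting program, strand and build were used was not given in the sources used here. E-values, another deposited column, came from BLASTX against human proteins, per the file headers. The authors' enrichment scores were not used.

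Transcript length was derived from deposited reads and RPKM, which gave 1 whole number per transcript. CPM is reads over the column total. A count of 0 allows 3 reads, or 0.584 CPM for midbodies, 0.372 for mitotic and 0.237 for interphase microtubules. Reads were called whole within 1e-06. Human protein names were assigned to the accessions by hand, and for all 8 that also had a RefSeq symbol (assembly CriGri-PICRH-1.0, used for names only) the symbols were equal. Those 8 were genes of the lists and not members, so the names of the members had no such check. Where a listed protein had several transcripts, the one with most reads was used. Intervals are Clopper-Pearson, and fractional reads entered as they are. No p-value is given, since each group has 1 library. The procedure was tested on simulated data. The depletions there were larger than in most members and set in transcripts with a minimum of expected reads. That test therefore does not cover members near the line or with few reads.

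The members, gene lists and alternatives were chosen with earlier results of these data known. The lists were midbody and central spindle proteins, immediate early genes, C2H2 zinc finger genes, the BMP and TGF-beta response, cell type markers and, written after the members were known, the families named. Members were named by a rule on reads, level, ratio, closeness to the line and class, and all 54 appear. Sequences were not used here, and a gene of these families is not reported here. Python 3.11.15, NumPy 2.4.6, pandas 2.3.3, SciPy 1.17.1 and Matplotlib 3.10.9 were used.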

Additional observations from a re-analysis of the deposited data

How the results depend on the processing

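The number of transcripts lower than both libraries depended most on the pseudocount. It was 54 with 1 added to RPKM, 342 with 0.1 and 4 with 5, where KHSRP, VLDLR, BCL9 and FOCAD were left. Against mitotic microtubules alone the count of 237 became 1968 and 31. A floor of 10 RPKM left 30 and 91, and a minimum of 50 reads in both comparison libraries, chosen after seeing the data, left 30. Median of ratios and trimmed mean of M values scaling each left 50, in both cases without KCTD15, HSPB6 and THRA. CPM in place of RPKM gave 48, of which 36 were among the 54. Summing reads over each human match, also chosen after seeing the data, left 46. It was done only for the 12 members with further transcripts, in CPM with nothing added, so it could only lower the count. The median member length became 1518 bases with the 10 RPKM floor, 1864 with the read minimum, 1870 in CPM and 1947 with a pseudocount of 5. The median mitotic to interphase log2 ratio of -0.47 became -0.15 with that pseudocount and -0.22 with 0.1, where the medians over all transcripts at 1 RPKM or more were -0.09 and -0.12. The causes were not tested. The interphase count stayed within 1.5 times 2712 under the 8 settings it was computed for, which leave out the read minimum and the summing. Of 540 log2 ratios of single members under other pseudocounts, scalings and CPM, 10 moved beyond counting error, all with a pseudocount of 5. Their signs could hardly change, since the rule fixed them. Few midbody reads limit the 18 members with 3 or fewer. No paired analysis was possible because each group has 1 library.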
